A study of Mus musculus with 112 samples.

Results

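The replication-dependent histone genes encode the linker histone H1 and the core histones H2A, H2B, H3 and H4, and most of them lie in a few tight clusters of the mouse genome. All probes whose symbol starts with Hist1h, Hist2h, Hist3h or Hist4h were taken, which gave 89 of the 45281 probes on the array. They carry 59 of the array's 30774 gene symbols, and each of the 59 matched 1 current RefSeq gene of the mouse assembly GRCm38.p6. The Hist1 cluster on chromosome 13 accounts for 69 probes of 46 genes, the Hist2 cluster on chromosome 3 for 15 probes of 9 genes, Hist3 on chromosome 11 for 3 probes of 3 genes, and Hist4 on chromosome 6 for 2 probes of 1 gene. By type there were 7 H1 probes, 24 H2A probes, 20 H2B probes, 18 H3 probes and 20 H4 probes.

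The study measured RNA on 112 Illumina bead arrays to compare epiblast stem cell lines with each other, with the epiblast they come from and with other pluripotent cells. Epiblast stem cells (EpiSC) are pluripotent lines grown from the post-implantation epiblast. They were represented by 65 arrays of 18 lines of strain R1-129 at passages 10 to 19, mostly as 3 cultures each, lifted with collagenase from the fibroblast layer on which they grew. The lines came from cavity stage embryos (CAV1 to CAV4), prestreak embryos (PS3 to PS5), late midstreak embryos (LMS1 to LMS6), early bud embryos (the sister lines EB1a and EB1b) and late bud embryos (LB1 to LB3). CAV2, CAV3, LMS2 and LB1 also had a subline, marked with an asterisk, that was thawed at another time. EpiSC9 was an established EpiSC line of strain 129SvJ at passage 24 (3 cultures), and EpiSC9_T was 1 RNA sample of EpiSC9 supplied by another laboratory. Induced pluripotent stem cells (iPSC) were 3 lines with 3 arrays each, reprogrammed from tail tip fibroblasts of a (C57BL6xC3H)F1 hybrid. Embryonic stem cells (ESC) were 3 arrays of 1 line of strain R1-129 at passage 22. Mouse embryonic fibroblasts (MEF) were 2 arrays of strain ARC/s. A further 12 arrays held linearly amplified RNA of 4 EpiSC lines (CAV2, LB2, LMS3 and PS5, 3 cultures each), and 17 held amplified RNA of single dissected epiblasts of strain R1-129. The epiblasts were taken at the cavity (2 embryos, embryonic day 5.5 to 6.0), prestreak (2, day 6.0 to 6.5), late midstreak (3, day 6.75 to 7.5), late streak (3, day 7.0 to 7.5), no bud (1, day 7.25 to 7.75), early bud (3, day 7.5 to 8.0) and late bud (3, day 7.75 to 8.25) stages.

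Replication-dependent histone genes are switched on as cells enter S phase and supply the histones that package newly made DNA. Their mRNAs have no introns and normally end in a conserved stem-loop, bound by Slbp, instead of a poly(A) tail. The 3′ end is cut by a complex that holds the U7 snRNP proteins Lsm10 and Lsm11 and parts of the general cleavage machinery. Some of these genes, in human cells H1C and several H2B genes among them, can also give polyadenylated mRNA when cells stop dividing or differentiate. Labelling with an oligo-dT primer reads polyadenylated molecules, so a level here is that of histone RNA captured by such a primer. It is not the total histone mRNA of the cell. Probe sequences were not analysed here, and paralogs within a type are so alike that probes may share targets.

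Many H2A and H2B genes of the Hist1 cluster stand head to head, so that 1 stretch of DNA lies upstream of both. Hist1h2ah and Hist1h2bk start 176 bases apart, and Hist1h2ag and Hist1h2bj 247 bases apart. The first 2 of the promoters below are shown because both genes of each pair were measured and moved in opposite directions between EpiSC and MEF. Hist1h1c is shown as the linker histone gene with the largest difference from MEF, Hist1h3e as an H3 gene that varied strongly between EpiSC lines, and Hist1h2ae because it was higher in bud stage epiblasts, where 8 other H2A probes were lower. Each sequence is the 250 bases before the RefSeq gene start in GRCm38.p6, 5′ to 3′ on the strand of the named gene. Capitals mark 3 motifs found on either strand: the octamer ATTTGCAT, which is known from H2B promoters, the CCAAT box and the TATA box TATAAA.
Hist1h2bk, chr13:22035571-22035820, plus strand: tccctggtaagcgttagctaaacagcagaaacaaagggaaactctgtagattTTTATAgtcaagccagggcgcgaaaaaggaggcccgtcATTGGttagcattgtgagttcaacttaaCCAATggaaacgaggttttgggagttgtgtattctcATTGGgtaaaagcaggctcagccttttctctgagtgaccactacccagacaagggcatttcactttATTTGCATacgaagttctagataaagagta
Hist1h2bj, chr13:22042948-22043197, plus strand: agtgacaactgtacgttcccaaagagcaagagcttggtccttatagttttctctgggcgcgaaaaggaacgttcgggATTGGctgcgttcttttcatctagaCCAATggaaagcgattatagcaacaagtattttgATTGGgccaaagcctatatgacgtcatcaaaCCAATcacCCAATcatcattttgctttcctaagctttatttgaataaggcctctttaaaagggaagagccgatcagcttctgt
Hist1h1c, chr13:23738557-23738806, plus strand: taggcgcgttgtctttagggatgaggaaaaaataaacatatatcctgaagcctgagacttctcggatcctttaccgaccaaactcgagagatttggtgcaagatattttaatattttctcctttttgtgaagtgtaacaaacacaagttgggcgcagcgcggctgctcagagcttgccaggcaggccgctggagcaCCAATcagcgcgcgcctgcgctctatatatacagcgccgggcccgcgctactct
Hist1h3e, chr13:23562386-23562635, minus strand: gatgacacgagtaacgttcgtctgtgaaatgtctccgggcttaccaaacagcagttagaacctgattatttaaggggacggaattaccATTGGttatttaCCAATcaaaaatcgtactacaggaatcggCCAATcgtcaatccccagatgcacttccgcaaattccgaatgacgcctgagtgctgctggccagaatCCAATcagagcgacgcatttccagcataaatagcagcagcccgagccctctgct
Hist1h2ae, chr13:23571221-23571470, minus strand: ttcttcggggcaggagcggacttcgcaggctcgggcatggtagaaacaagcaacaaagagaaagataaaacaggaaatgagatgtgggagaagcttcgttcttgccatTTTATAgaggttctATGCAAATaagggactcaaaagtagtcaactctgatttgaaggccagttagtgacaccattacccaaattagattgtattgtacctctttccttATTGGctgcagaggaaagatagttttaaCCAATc
Of the 59 genes, 53 had a promoter in the table. The octamer was present in 7 of 17 H2A promoters and 7 of 12 H2B promoters and in 0 promoters of the other types, against 1.6% of all 32851 mouse promoters of the same length. Head-to-head partners can share 1 site, as Hist1h2ah and Hist1h2bk do for the octamer, so the H2A and H2B counts are not separate. CCAAT was present in 6 of 6 H1, 17 of 17 H2A, 12 of 12 H2B, 6 of 7 H3 and 3 of 11 H4 promoters, against 33.8% of all promoters. TATAAA was present in 4 of 6 H1, 7 of 17 H2A, 7 of 12 H2B, 2 of 7 H3 and 5 of 11 H4 promoters, against 12.4% of all promoters. These matches describe the letters only.

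Levels are log2 intensities after background correction and normalization of all arrays together, on a scale whose top is 14.47. A probe counts as detected when its detection p is under 0.01. H2A probes were detected most often, with 21 of 24 on at least 50 percent of the EpiSC arrays, against 3 of 7 for H1, 14 of 20 for H2B, 12 of 18 for H3 and 15 of 20 for H4. A further 10 probes were detected on 0 of the 112 arrays, among them those of Hist1h2ac, Hist1h1e, the testis gene Hist1h1t and Hist1h2ba. Of the H2A probes, 11 averaged within 1 log2 unit of the top of the scale in EpiSC and 0 did so in MEF, so differences among cells where these probes are bright are compressed. Intensities of different probes are not compared.

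The labels were checked before the comparisons. Pou5f1, the core pluripotency factor, averaged 12.22 in EpiSC, 12.97 in iPSC and 13.06 in ESC, against 4.36 in MEF. Zfp42, a marker of naive pluripotency, averaged 4.75 in EpiSC, against 11.72 in iPSC and 9.91 in ESC, and the collagen gene Col1a1 averaged 12.61 in MEF. Arrays of iPSC3 correlated with those of ESC at r = 0.996 to 0.997 over all probes, as closely as the ESC arrays with each other, while iPSC1 and iPSC2 correlated with ESC at 0.965 to 0.974. The first cultures of iPSC1 and iPSC2 correlated with each other at 0.996, more than with the other cultures of their own lines (0.981 to 0.984). Counts of called probes that use iPSC are therefore also given without iPSC3 and without those first cultures. Probes below background split the arrays into 7 sets, with ESC and iPSC alone in a set. MEF shared a set with EpiSC9, EpiSC9_T, the sublines of CAV2, LB1 and LMS2, and the lines EB1a and EB1b. The share of probes detected was 33.7% to 41.1% on EpiSC arrays, 35.2% to 37.3% for iPSC, 35.3% to 36.3% for ESC, 32.7% to 33.7% for MEF, 24.6% to 32.7% for amplified EpiSC and 21.3% to 29% for epiblasts.

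EpiSC and fibroblasts differed in histone RNA mostly by type. Most H2A probes were higher in EpiSC, most H2B probes and both probes of the linker histone gene Hist1h1c were lower, and most H3 and H4 probes did not pass the test. With limma and adjustment over all probes, 40 of 74 histone probes tested passed (18 higher and 22 lower in EpiSC), beside 44.2% of all 21726 probes tested (22.1% in each direction). By type, 14 of 21 H2A probes were higher and 4 lower. Of 18 H2B probes 0 were higher and 12 lower, of 13 H3 probes 4 were higher and 1 lower, of 18 H4 probes 0 were higher and 3 lower, and of 4 H1 probes 0 were higher and 2 lower. The median difference was +1.68 for H2A, −1.76 for H2B, +1.03 for H3 and −0.37 for H4, against +0.12 over all probes tested. MEF stands as 1 unit that is assumed to vary like the EpiSC lines. Within the array set that holds MEF, 42 of 68 histone probes passed (20 higher, 22 lower). There 8540 of all probes passed, against 9606 with all EpiSC arrays.

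Among the H2A genes, the core histone that pairs with H2B in the nucleosome, Hist2h2ab and Hist1h2ag had the highest fitted differences, among probes of which 11 were compressed at the top of the scale in EpiSC. Hist2h2ab lay between 10.54 and 11.86 in the 18 EpiSC lines (median 11.08), against 7.32 and 7.60 in the MEF arrays. The difference was +3.62 on the log2 scale (SE 0.33, adjusted p = 9.98e-09 by limma), and every EpiSC line lay above both MEF arrays. Hist1h2ag lay between 10.67 and 11.75 in EpiSC (median 11.39), against 7.44 and 8.27 in MEF, a difference of +3.52 (SE 0.23, adjusted p = 3.10e-11). The 2 probes of Hist1h2ah agreed, at +3.16 (ILMN_2730329) and +2.89 (ILMN_1246108). Hist1h2ak differed by +3.00, with 13.78 to 14.10 in EpiSC, against 10.70 and 11.20 in MEF. Hist1h2an differed by +2.84, with 12.86 to 13.90 in EpiSC, against 9.98 and 11.13 in MEF.

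A small set of H2A probes of the Hist2 cluster went the other way. Hist2h2aa2 lay between 8.32 and 9.51 in EpiSC (median 8.92), against 11.54 and 11.68 in MEF, a difference of −2.72. For Hist2h2aa1, ILMN_2751948 differed by −3.41, with 4.97 to 7.02 in EpiSC, against 9.31 and 9.49 in MEF, and 54 of 65 EpiSC arrays detected it. ILMN_1231053 of the same gene differed by −3.37, with 7.05 to 8.87 in EpiSC, against 11.12 and 11.34 in MEF, while the third probe, ILMN_1228849, differed by −0.01. The probes of Hist2h2ac disagreed in direction: ILMN_1218380 differed by +1.11 and ILMN_1254276 by −2.15. The gene-level direction of Hist2h2ac is therefore not settled.

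Every H2B probe that passed was lower in EpiSC. Hist1h2bc on ILMN_1242399 lay between 8.63 and 10.91 in EpiSC (median 9.88), against 12.26 and 12.53 in MEF, a difference of −2.61 (SE 0.65, adjusted p = 0.00235 by limma). Hist1h2bk, read by ILMN_2636781, lay between 7.93 and 9.36 in EpiSC (median 8.56), against 10.71 and 10.87 in MEF, a difference of −2.23, and its second probe differed by −1.20. The EpiSC lines and the MEF arrays did not overlap on ILMN_1242399 or ILMN_2636781. A second probe of Hist1h2bc, ILMN_2677231, was detected on 1 of 65 EpiSC arrays and 0 of 2 MEF arrays.

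H2A and H2B also differed in opposite directions within 4 head-to-head pairs of the Hist1 cluster. The pairs were picked by position, and several of their genes are named here after their values were seen. In EpiSC minus MEF, Hist1h2ad differed by +2.80 and +2.02 on its 2 probes and its partner Hist1h2bf by −1.93. Hist1h2ag differed by +3.52 and Hist1h2bj by −1.97, and Hist1h2ak differed by +3.00 and Hist1h2bn by −1.78. Hist1h2ah and Hist1h2bk, whose shared promoter stands first in the sequences above, differed by +3.16 and +2.89 against −2.23 and −1.20. All of these passed the test. Hist1h2bf lay between 9.52 and 11.16 in EpiSC, against 12.17 and 12.21 in MEF, and Hist1h2bj between 9.24 and 10.65, against 11.89 and 11.88. In the pair of Hist1h2ae and Hist1h2bg, Hist1h2ae differed by −0.60 and did not pass (adjusted p = 0.147 by limma). Hist1h2bg differed by −1.35 and passed (adjusted p = 4.22e-07 by limma). Hist1h2bg was detected on 2 of 65 EpiSC arrays and 1 of 2 MEF arrays.

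Hist1h1c, which encodes a somatic H1 linker histone, was lower in EpiSC on both probes. ILMN_2774537 lay between 8.72 and 10.15 in EpiSC (median 9.69), against 12.20 and 12.08 in MEF, a difference of −2.58 (SE 0.44, adjusted p = 4.65e-05 by limma). ILMN_2855315 differed by −2.40. Hist1h1a and Hist1h1b, which encode other somatic H1 proteins, differed by +0.76 and +1.09 without passing the test, and 0 of 2 MEF arrays detected either.

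Of the H3 genes, Hist1h3a averaged 8.88 ± 0.69 in EpiSC (SD, n = 18 lines), against 6.28 and 7.45 on the MEF arrays, a difference of +2.02. Hist1h3c averaged 6.54 ± 0.56 in EpiSC, against 4.38 and 4.42 in MEF, where 0 of 2 arrays detected it. It was at least 1.92-fold higher in EpiSC, the EpiSC mean being set against the lowest detected signal of each MEF array (adjusted p = 0.00557 by limma). The H4 genes Hist1h4h, Hist1h4i and Hist1h4j were lower in EpiSC. Hist1h4h lay between 7.09 and 8.22 in EpiSC, against 9.81 and 10.58 in MEF, a difference of −2.64 (SE 0.36, adjusted p = 3.03e-06), and Hist1h4i and Hist1h4j differed by −1.32 and −1.39.

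**Figure D1:**
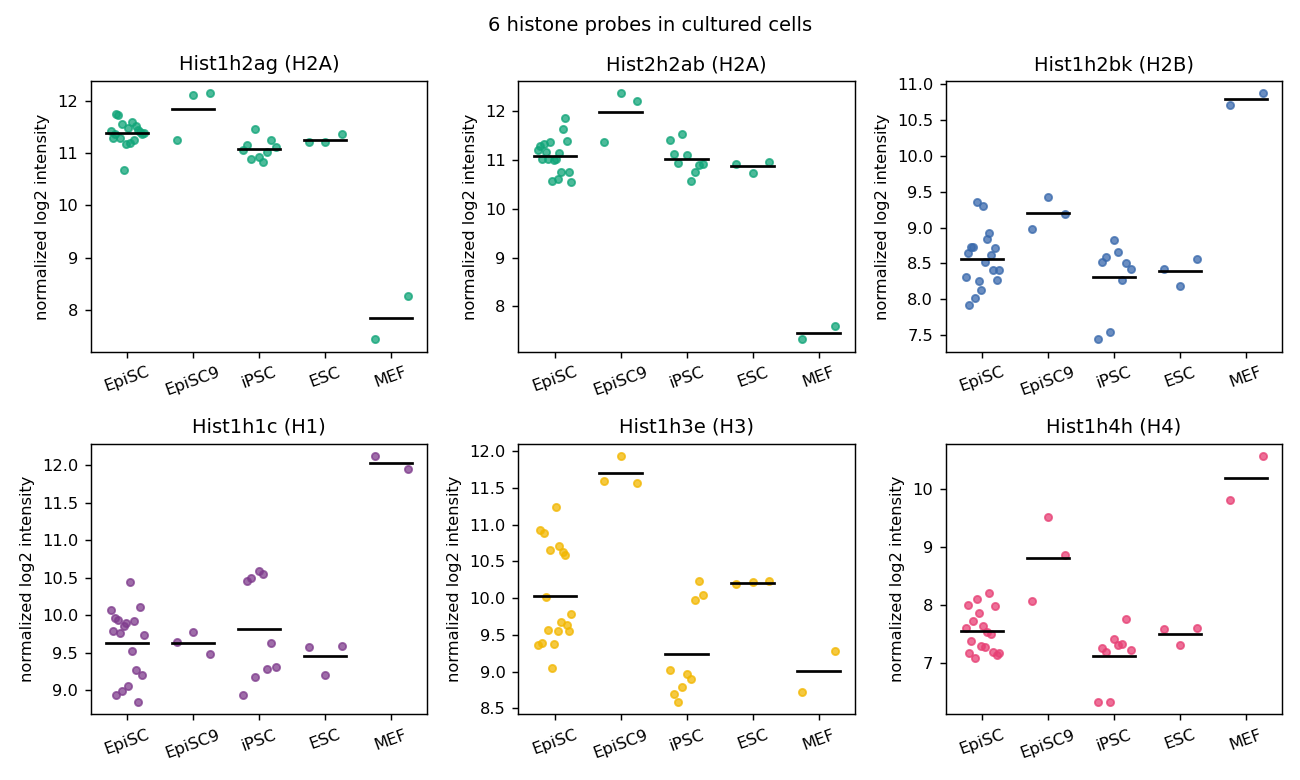
Log2 intensity of Hist1h2ag, Hist2h2ab, Hist1h2bk, Hist1h1c, Hist1h3e and Hist1h4h in EpiSC, EpiSC9, iPSC, ESC and MEF. For EpiSC each point is 1 of 18 line means, for the other cells each point is 1 array, and the bar is the mean. The H2A panels show MEF below every other group (7.32 to 8.27), and the panels of Hist1h2bk, Hist1h1c and Hist1h4h show MEF at the top.

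**Figure D2:**
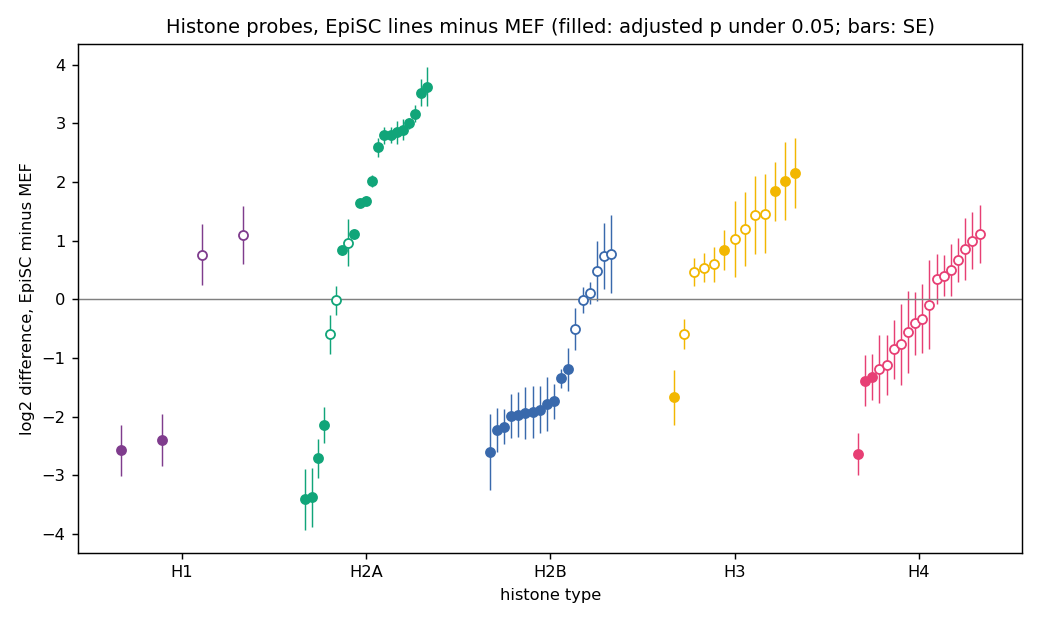
Log2 difference EpiSC minus MEF of each histone probe tested, arranged by histone type on the other axis, with bars of 1 standard error and filled points for an adjusted p under 0.05. Passing H2B points lie below 0 (12 probes), and 14 of the 18 passing H2A points lie above 0.

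Each processing, replacement histone, chaperone and S phase gene that passed was higher in EpiSC than in MEF. The list counts below stand beside 44.2% of all probes called, 22.1% in each direction. Of 19 genes of 3′ end processing tested, 10 were higher and 0 lower, among them Zfp473, a zinc finger protein of the histone cleavage complex (+2.78), and the cleavage factor genes Cstf2 (+1.51) and Cpsf1 (+1.46). Of 11 replacement histone genes, most of which are transcribed also outside S phase and give polyadenylated mRNA, 7 were higher and 0 lower. The centromeric H3 gene Cenpa differed by +3.30, H1fx by +3.13, H2afz by +2.14 and H2afx by +2.01. Of 19 histone chaperone genes, 14 were higher and 0 lower, with the H3–H4 and linker histone chaperone Nasp at +5.74 and the replication-coupled chaperone subunit Chaf1a at +2.87. Of 24 S phase genes, 18 were higher and 0 lower, with the DNA ligase gene Lig1 at +2.93 and the helicase subunit Mcm7 at +2.87. Slbp was not tested, since its probe stayed near background (4.38 in EpiSC, against 4.33 in MEF). Of 9 fibroblast genes tested, 8 were lower in EpiSC. The summed intensity of that list of 10 probes ranged from 4745 to 30637 on EpiSC arrays (median 11625), against 61072 and 67917 on the MEF arrays, and EpiSC were lifted off fibroblasts. The part of fibroblasts in the EpiSC levels was not tested.

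The iPSC lines are set against the same MEF arrays, so the comparison shares its control with the one above. Of 65 histone probes tested, 39 passed (17 higher and 22 lower in iPSC), beside 53.7% of all 18542 probes (28.3% higher and 25.3% lower). Hist2h2ab differed by +3.56 between iPSC and MEF and Hist1h2ag by +3.22, while Hist1h2bk on ILMN_2636781 differed by −2.48, Hist1h1c on ILMN_2774537 by −2.29 and Hist1h4h by −3.07. Hist1h2ag lay between 10.83 and 11.46 on the 9 iPSC arrays, against 7.44 and 8.27 in MEF. Of the types, H2A had 14 probes higher and 4 lower of 21, H2B had 0 higher and 12 lower of 13, H3 had 3 higher and 1 lower of 13, H4 had 0 higher and 3 lower of 15, and H1 had 0 higher and 2 lower of 3. Without iPSC3, 38 of 60 histone probes passed (14 higher, 24 lower), and without the first cultures of iPSC1 and iPSC2, 35 of 65 (14 higher, 21 lower). Calls over all probes were 9393 and 9669 in these settings, against 9954.

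Among the pluripotent cells the histone probes rarely passed the test. Between EpiSC and ESC, 1 of 73 histone probes passed, beside 25.8% of 21929 probes (12.1% higher and 13.7% lower), and 4 had an unadjusted p under 0.05, beside 37.6% of all probes. That probe read Hist1h2ak, which lay between 13.78 and 14.10 in EpiSC, against 13.73, 13.60 and 13.59 in ESC, a difference of +0.31 near the top of the scale (SE 0.10, adjusted p = 0.0205 by limma). ESC is 1 line that stands as 1 unit and is assumed to vary like the EpiSC lines. Median scaling in place of quantile normalization left 0 histone probes, with 5296 of all probes called, against 5647.

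Between EpiSC and iPSC, 3 of 73 histone probes passed, beside 41% of 22227 probes (20.6% higher and 20.4% lower), and 8 had an unadjusted p under 0.05, beside 49.2%. Hist1h2ae lay between 4.66 and 6.01 in EpiSC (median 5.26), against 5.62 to 6.48 on the iPSC arrays, a difference of −0.73 (SE 0.20, adjusted p = 0.00577 by limma). Its ranges overlapped. Hist2h2bb averaged 5.60 ± 0.55 in the EpiSC lines (SD, n = 18), against 4.81 ± 0.34 in the iPSC lines (n = 3), where 0 of 9 arrays detected it, and was at least 1.21-fold higher in EpiSC. The third was ILMN_2925169 of Hist1h3f, at −0.40. Leaving out iPSC3 gave 7 probes (5 higher, 2 lower), leaving out iPSC2 gave 1, and leaving out the first cultures of iPSC1 and iPSC2 gave 5 (3 higher, 2 lower). These settings called 7196, 6887 and 9444 of all probes, against 9123.

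Between iPSC and ESC, 0 of 65 histone probes passed with limma, beside 0% of 17910 probes. An unadjusted p under 0.05 was found for 0 histone probes, beside 9.6% of all probes. The 3 iPSC lines did not sit together for H3 and H4. The H3 type median was 8.25 in iPSC1, 8.37 in iPSC2 and 9.63 in iPSC3, against 9.55 in ESC, and the H4 type median was 6.27, 6.44 and 7.07, against 7.19 in ESC. Hist1h3c had 5.64, 5.26 and 5.19 in iPSC1, 5.35, 5.68 and 5.40 in iPSC2, and 7.32, 7.33 and 6.98 in iPSC3, against 7.19, 7.27 and 7.38 in ESC. The iPSC3 arrays overlapped those of ESC, and the arrays of iPSC1 and iPSC2 lay below both. Hist1h1c on ILMN_2855315 had 8.94, 10.46 and 10.49 in iPSC1 and 9.19, 10.59 and 10.55 in iPSC2, where the first culture was the low one each time. It had 9.28, 9.63 and 9.31 in iPSC3, against 9.57, 9.21 and 9.60 in ESC. Without iPSC3, 2 of 64 histone probes were lower in iPSC than in ESC, beside 12.1% of all probes called in either direction, and without the first cultures 0 of 65 passed, beside 0% of all probes.

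The lists of histone supply and processing genes are given beside the share of all probes called, 25.8% in EpiSC minus ESC and 41% in EpiSC minus iPSC. Of 19 genes of 3′ end processing, 1 was higher and 5 lower in EpiSC than in ESC, with Zfp473 at −2.24 and Lsm11 at +0.51. Of 11 replacement histone genes, 4 were higher, among them the macroH2A gene H2afy2 (+2.43), H1f0 (+1.92) and H1fx (+1.44), and 2 were lower, H2afj among them (−1.69). Of 24 S phase genes, 0 were higher and 2 lower, with the cyclin gene Ccne1 at −1.96, and of 19 histone chaperone genes 1 was higher and 1 lower. Against iPSC, 4 of 11 replacement histone genes were higher and 3 lower in EpiSC, 2 of 24 S phase genes were higher and 6 lower, 4 of 19 chaperone genes were higher and 1 lower, and 1 of 19 processing genes was higher and 1 lower.

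The EpiSC lines differed from each other in nearly all histone probes, as they did across the array. An F test over the cultures of 18 lines called 71 of 73 histone probes, beside 92.2% of 21482 probes, and the 2 that did not pass were bright H2A probes (Hist1h2ao and ILMN_1252136 of Hist1h2af). The H3 gene Hist1h3e ranged between 9.05 in LMS1 and 11.24 in LMS3, with an SD of 0.68 between lines and 0.21 within lines (adjusted p = 5.71e-23 by limma). These line means include sublines, and without their sublines CAV2 read 11.38 and CAV3 8.99 for Hist1h3e. ILMN_2748164 of the H3 gene Hist1h3f ranged between 8.31 in LMS1 and 10.76 in LMS3 (adjusted p = 6.12e-24). Hist1h4k on ILMN_2525570 ranged between 5.76 and 8.48 (adjusted p = 3.38e-22), and Hist2h2be on ILMN_1253851 between 8.18 and 10.29 (adjusted p = 3.25e-21).

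The H3 and H4 probes ran together across lines. Sublines were averaged into their lines here. LMS3 had the highest type medians, 10.43 for H3 and 8.35 for H4, and LMS1 the lowest, 8.16 and 6.19. CAV2, CAV4, PS5 and LMS5 also lay high, with H3 type medians of 10.02, 10.14, 9.87 and 9.91. Without its subline, CAV2 had 10.56 for H3 and 8.43 for H4, above LMS3. CAV3 without its subline had 8.12 and 5.94, below LMS1. The H2A type median moved less, between 13.15 in LMS1 and 13.81 in LMS4. However, 11 H2A probes averaged within 1 log2 unit of the top of the scale in EpiSC, so their differences between lines are compressed. Over the 18 lines the median correlation between probes was 0.93 within H4, 0.82 within H3, 0.78 within H2B and 0.84 between H3 and H4, against 0.19 within H2A. Hist1h1c ran the other way to H3, with r = −0.70 against Hist1h3e, while Hist1h1b ran with it (r = 0.96 against Hist1h3e). Hist1h2bj and Hist1h4j correlated at 0.85. These correlations describe lines whose cultures shared array sets, and they carry no test.

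Correlations between H3 probes and the 24 S phase genes over the 18 lines ranged from −0.55 to 0.66 (median −0.02). Those of the 9 fibroblast genes ranged from −0.63 to 0.83 with H1 probes (median 0.62, lower quartile −0.45), from −0.67 to 0.36 with H3 probes (median −0.42) and from −0.83 to 0.48 with H4 probes (median −0.46). Of the 3 H1 probes, 2 read Hist1h1c, and Hist1h1b ran opposite to Hist1h1c (r = −0.72 with ILMN_2855315). The part of S phase content and of residual fibroblasts in the line order was not tested. Sublines from the same embryo were not fixed at the level of their line: for Hist1h3e the subline of CAV2 differed from CAV2 by −0.91 and that of CAV3 from CAV3 by +0.82, while LMS2 and LB1 sublines differed by −0.48 and −0.09. All 4 sublines were thawed at another time than their lines and lay in other array sets.

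**Figure D3:**
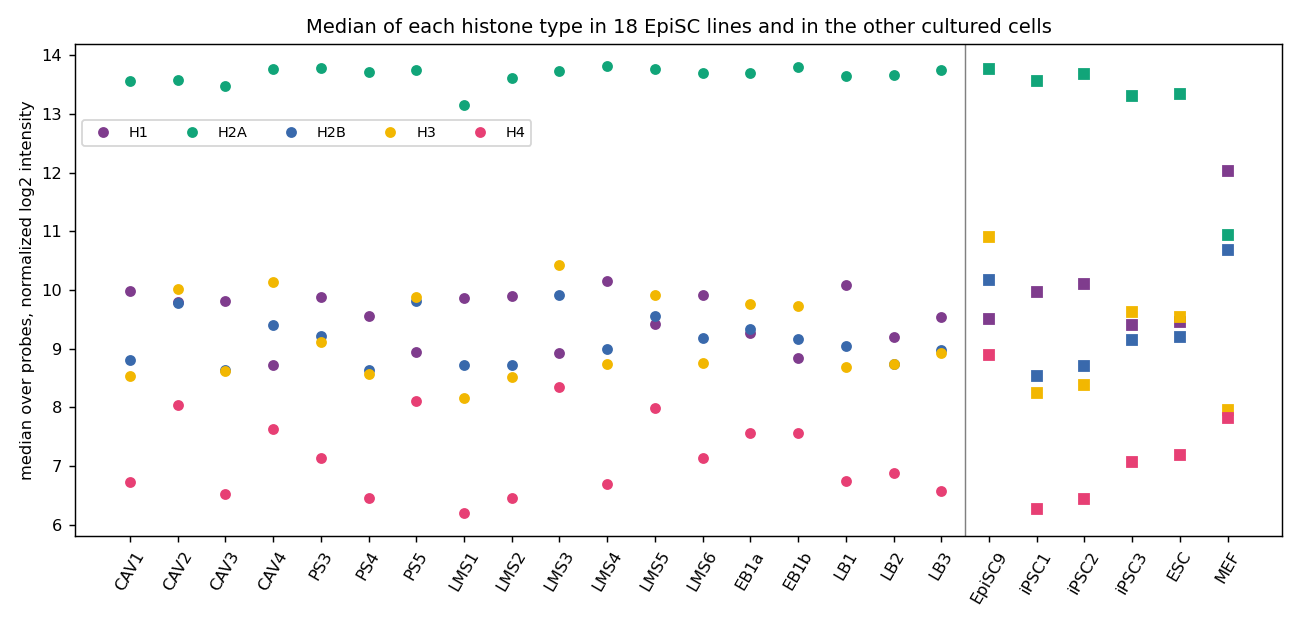
Median log2 intensity per histone type (probes detected on at least 50 percent of EpiSC arrays) in each of the 18 EpiSC lines, sublines averaged in. EpiSC9, iPSC1 to iPSC3, ESC and MEF follow as squares. H3 and H4 points move together from line to line, with LMS3 at 10.43 and 8.35 and LMS1 at 8.16 and 6.19. The H2A points stay between 13.15 and 13.81, near the top of the scale (14.47), where differences are compressed.

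No histone probe passed a test for the stage of the embryo from which a line was grown. In an F test over the 5 stages of origin, 0 of 73 passed with limma, beside 0.0140% of 21482 probes. An unadjusted p under 0.05 was found for 3 histone probes, beside 8.48% of all probes. The smallest p belonged to Hist2h2ab (adjusted p = 0.293 by limma). Lines of 1 stage lay far apart, as LMS1 and LMS3 show for Hist1h3e.

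EpiSC9 differed from the other EpiSC on 1 histone probe in the adjusted test. Of 73 probes tested 1 passed, beside 1.49% of 21679 probes (1.16% higher and 0.337% lower), and 38 had an unadjusted p under 0.05, beside 13.1% of all probes. The single EpiSC9 unit is assumed to vary like the other lines. Hist1h2bm had 9.91, 10.18 and 10.02 in EpiSC9, against 7.61 to 9.19 in the 18 lines (median 8.47), a difference of +1.60 (SE 0.38, adjusted p = 0.0291 by limma). All 3 EpiSC9 cultures lay above every line. The median difference was +1.55 for H4, +0.94 for H3, +0.88 for H2B and +0.12 for H2A, against −0.05 over all probes, and 18 of 18 H4 probes had an unadjusted p under 0.05. Hist1h3e had 11.59, 11.93 and 11.57 in EpiSC9, against 9.05 to 11.24 in the lines. The RNA sample EpiSC9_T was lower than the EpiSC9 cultures, with 10.31 for Hist1h3e and type medians of 9.41 for H3 and 8.07 for H4, against 10.90 and 8.90 in EpiSC9. Leaving out the first EpiSC9 culture gave 14 called histone probes, with 1053 of all probes called, against 324.

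Within the H4 genes, the differences of EpiSC9 from the lines lay between +1.17 (Hist2h4) and +2.08 (ILMN_2525570 of Hist1h4k). That Hist1h4k probe had 8.96, 9.69 and 8.78 in the EpiSC9 cultures, against 5.76 to 8.48 in the 18 lines, with an adjusted p of 0.209 by limma. The linker histone genes Hist1h1a and Hist1h1b showed differences of +1.86 and +1.89 (adjusted p = 0.0759 and 0.0593). Hist1h1a had 6.78, 7.69 and 6.97 in EpiSC9, against 4.49 to 6.25 in the lines. Hist1h1b had 7.46, 8.03 and 7.67 in EpiSC9, against 4.98 to 6.83 in the lines, and read 6.29 in EpiSC9_T. All 3 EpiSC9 cultures lay above all 18 lines on these 3 probes, while the EpiSC9_T array lay among the lines on each.

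The Hist3 genes were rarely detected, and Hist4h4 was detected on some arrays. Hist3h2a lay between 4.37 and 5.05 in the EpiSC lines and was detected on 2 of 65 arrays, Hist3h2ba between 4.41 and 5.26 (4 of 65), and Hist3h2bb between 4.55 and 5.42 (3 of 65). None of the 3 was detected on a MEF, amplified EpiSC or epiblast array. Hist4h4, an H4 gene and the only member of its cluster here, lay between 4.83 and 6.52 on ILMN_2985127, against 4.41 and 4.42 in MEF, and between 4.63 and 5.90 on ILMN_2985128, against a MEF mean of 4.63. Neither passed between EpiSC and MEF (differences of +1.00 and +0.40, adjusted p = 0.0976 and 0.354 by limma). LMS3 was the highest line on both, as it was for the H3 and H4 type medians. In amplified RNA, Hist4h4 averaged 7.54 on ILMN_2985127 and 8.17 on ILMN_2985128 in LMS3, and 6.58 and 7.21 in late streak epiblasts.

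In the embryo, a subset of H2A genes was lower at the bud stages. The 17 epiblasts were joined into early (cavity and prestreak, 4 embryos), streak (late midstreak and late streak, 6) and bud (no bud, early bud and late bud, 7) periods. Between the 3 periods, 15 of 63 histone probes differed in an F test, beside 44.8% of 14407 probes, and 13 of the 15 were H2A probes. Between bud and early epiblasts, 16 of 60 histone probes passed (2 higher and 14 lower at the bud stages), beside 39.3% of 12976 probes (19.4% higher and 19.9% lower). Of 19 H2A probes, 1 was higher and 8 lower. In a dissected layer, a change in the cells that make it up and a change of RNA per cell cannot be told apart.

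Hist1h2ag had 12.32 and 12.31 at the cavity stage, 12.13 and 11.95 at the prestreak stage, 11.97, 12.20 and 11.90 at the late midstreak stage, 12.63, 12.86 and 12.56 at the late streak stage and 12.31 in the no bud embryo. It then had 9.92, 10.71 and 9.57 at the early bud stage and 10.56, 9.79 and 10.08 at the late bud stage. The single no bud embryo lay with the earlier stages, and the 6 early and late bud embryos lay below every other epiblast. The bud minus early difference, no bud included, was −1.76 (SE 0.35, adjusted p = 5.43e-04 by limma). Hist1h2ah on ILMN_1246108 followed the same course, with 13.03 to 13.46 in early epiblasts, 13.10 to 13.92 in streak epiblasts and 12.72 in the no bud embryo. It had 10.51, 11.37 and 9.48 at the early bud stage and 11.38, 9.90 and 10.38 at the late bud stage, a bud minus early difference of −2.44. Hist1h2ak differed by −2.37, with 13.98 in the no bud embryo and 10.11 to 12.11 in the early and late bud embryos. ILMN_2795040 of Hist1h2ad differed by −2.06, with 13.61 and 10.15 to 12.09 in the same embryos.

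All epiblast RNA was amplified, and several of these probes read lower amplified than unamplified in the EpiSC lines CAV2 and LMS3. Amplified minus unamplified, Hist1h2ah on ILMN_1246108 differed by −1.59 in CAV2, −2.46 in LMS3, −0.78 in PS5 and −0.36 in LB2. Hist1h2ak differed by −1.10, −1.56, −0.17 and +0.18 in the same lines, ILMN_2795040 of Hist1h2ad by −0.98, −1.44, −0.14 and +0.10, and Hist1h2ag by −0.18, −0.45, +0.02 and +0.41. The part of amplification in the bud stage differences was not tested.

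Hist2h2aa2 and a probe of Hist2h2ac, both from the Hist2 cluster, fell most. Hist2h2aa2 averaged 5.43 ± 1.21 in bud epiblasts (SD, n = 7), against 8.70 ± 1.13 in early epiblasts (n = 4), a difference of −3.26 (SE 0.63, adjusted p = 3.77e-04 by limma). Hist2h2ac on ILMN_1254276 was detected in 0 of 7 bud epiblasts and 3 of 4 early epiblasts, and was at least 2.06-fold lower at the bud stages (adjusted p = 1.34e-05). Hist2h2ab differed by −0.50.

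Other H2A probes stayed bright at all stages, and the probes of 1 gene did not always agree. ILMN_2745212 of Hist1h2ai lay between 13.89 and 14.23 in bud epiblasts, against 13.80 to 13.97 in early epiblasts, and Hist1h2an between 13.81 and 14.07, against 14.01 to 14.18. For Hist1h2ad, ILMN_1226839 differed by +0.11 and did not pass, while ILMN_2795040 passed at −2.06. For Hist2h2ac, ILMN_1218380 differed by +0.20 and did not pass. Of the 19 H2A probes tested, 8 were lower, 1 higher and 10 did not pass.

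Hist1h2ae, whose promoter is printed above, rose. It had 7.09 and 5.72 at the cavity stage, 5.01 and 5.08 at the prestreak stage, 5.89, 5.74 and 6.40 at the late midstreak stage, 5.91, 5.35 and 7.63 at the late streak stage and 7.35 in the no bud embryo. It had 8.99, 9.68 and 8.89 at the early bud stage and 7.40, 8.52 and 8.50 at the late bud stage. The bud minus early difference was +2.75 (SE 0.46, adjusted p = 1.06e-04 by limma), and every bud epiblast lay above every early one. ILMN_2925169 of Hist1h3f also rose by +2.75, whereas ILMN_2748164 of that gene differed by −0.69 (adjusted p = 0.188). H4 probes of Hist1h4k and Hist1h4m were lower, at −1.37 to −1.57, and the H2B gene Hist2h2be differed by −1.20. The linker histone genes did not pass: Hist1h1b read 8.03 to 8.85 in bud epiblasts, against 7.24 to 9.63 in early ones, and Hist1h1a 5.75 to 9.62, against 6.13 to 9.14.

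**Figure D4:**
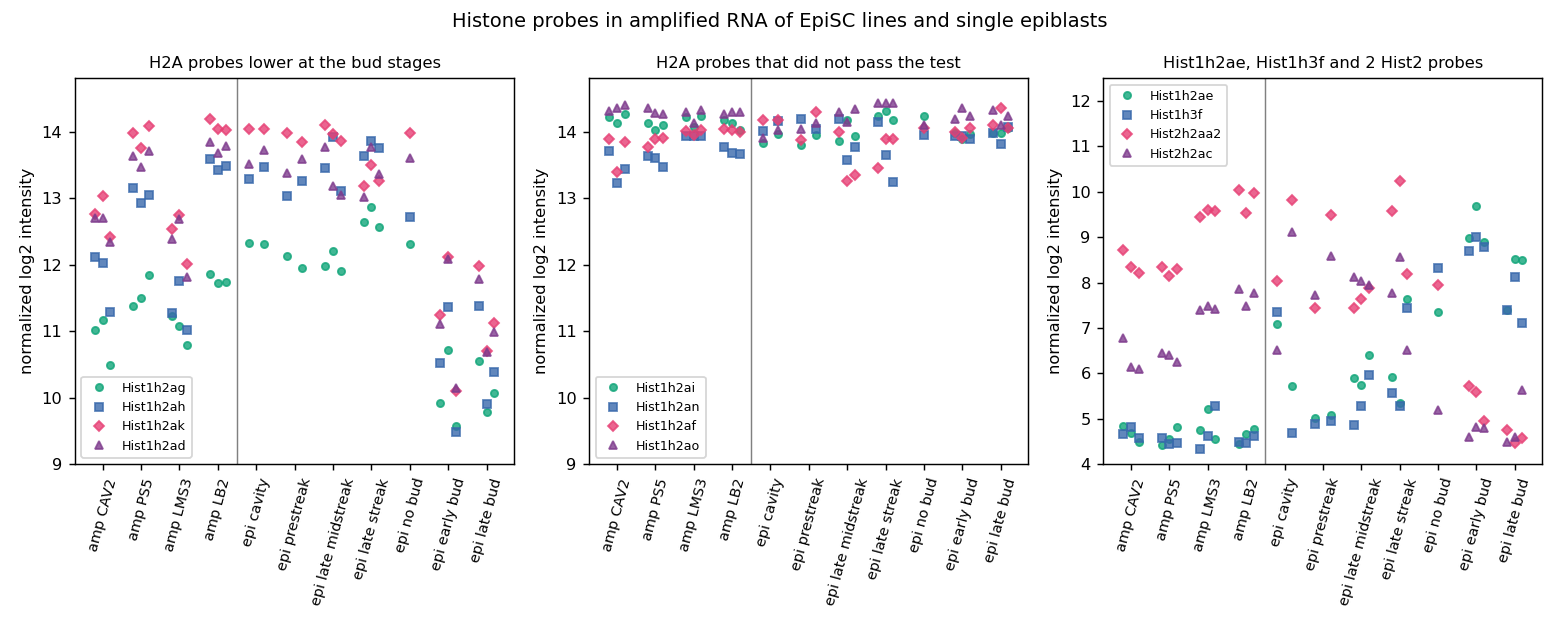
Log2 intensity of H2A and H3 probes in amplified RNA of EpiSC lines (left) and of single epiblasts by stage, with 1 point per array. The first panel shows H2A probes that were lower at the bud stages, such as Hist1h2ag at 9.57 to 10.71 in early and late bud embryos, the second shows H2A probes that did not pass, such as Hist1h2an, and the third shows Hist1h2ae and Hist1h3f, which were higher, with Hist2h2aa2 and Hist2h2ac.

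Other readings also differed at the bud stages, the list counts below standing beside 39.3% of all probes called. The share of probes detected was 21.3% to 25.2% in bud epiblasts, against 25.4% to 28.0% in early ones. Of 22 S phase genes tested, 3 were higher and 6 lower, with the helicase subunit Mcm3 at −2.33 and Ccne1 at −2.11. Of 18 genes of 3′ end processing, 2 were higher and 5 lower, with Srrt at −1.58, Sympk at −1.48 and Zfp473 at +1.01. Of 10 replacement histone genes, 2 were higher, the macroH2A gene H2afy (+1.90) and H1f0 (+1.33), and 3 were lower, among them H3f3a (−1.97) and H2afz (−1.57). Pou5f1 averaged 8.01 in bud epiblasts, against 11.26 in early ones, and the summed fibroblast list ranged from 2109 to 5156, against 1256 to 1586. The part of these in the histone differences was not tested. Late bud embryos shared an array set with early ones, and within that set 25 of 59 histone probes passed (2 higher, 23 lower). Without the no bud embryo 21 of 60 passed, and without the second cavity embryo 8 of 59. Without the 2 epiblasts whose descriptions name cultured cells (the third early bud and the third late bud embryo), 9 of 60 passed. Calls over all probes in these settings were 4893, 6106, 3847 and 3812, against 5102 with all embryos.

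Amplified EpiSC were set against the mean of the early, streak and bud epiblasts, each period weighted equally, both with amplified RNA. The epiblast means given here are also over the 3 periods, and their SD is over the 17 embryos. Of 66 histone probes tested, 14 passed (4 higher and 10 lower in EpiSC), beside 36.4% of 16741 probes (20.0% higher and 16.3% lower). Hist2h2ab averaged 11.59 ± 0.37 in EpiSC (SD, n = 4 lines), against 12.63 ± 0.37 in the epiblasts (n = 17), a difference of −1.04 (SE 0.17, adjusted p = 5.10e-05 by limma). Its arrays overlapped, between 10.68 and 12.19 in EpiSC and between 11.72 and 13.26 in the epiblasts. Hist1h2bc went the other way, with 8.07 ± 0.41 in EpiSC, against 6.51 ± 0.69 in the epiblasts, a difference of +1.56 (SE 0.35, adjusted p = 0.00116). Hist2h2aa2 differed by +1.48, ILMN_2751948 of Hist2h2aa1 by +1.40 and ILMN_2774537 of Hist1h1c by +0.61. Hist1h2ae, high at the bud stages, was detected on 0 of 12 EpiSC arrays and in 10 of 17 epiblasts, and was at least 1.65-fold lower in EpiSC. All 5 H3 probes that passed were lower, with Hist1h3c at −0.99, ILMN_3136540 of Hist2h3c1 at −0.60, Hist2h3b at −0.56, ILMN_2592253 of Hist1h3h at −0.55, and ILMN_2925169 of Hist1h3f at least 1.32-fold lower. The H2A gene Hist1h2ab differed by −1.03, and the H4 genes Hist1h4b (ILMN_1213257) and Hist1h4d by −1.25 and −0.85.

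The 4 amplified lines differed from each other on the H2A probes that were lower at the bud stages. Hist1h2ah on ILMN_1246108 had 11.29 to 12.12 in CAV2 and 11.01 to 11.76 in LMS3, against 12.93 to 13.15 in PS5 and 13.42 to 13.59 in LB2. CAV2 and LMS3 lay near the early and late bud epiblasts (9.48 to 11.38), and PS5 and LB2 among the other epiblasts (12.72 to 13.92). The same lines lay close together in unamplified RNA, at 13.40 in CAV2 (without its subline), 13.81 in LMS3, 13.82 in PS5 and 13.86 in LB2. Of the lists, fibroblast genes were higher in amplified EpiSC (8 of 9, beside 20.0% of all probes). Their summed level was 6420 to 16505, against 1256 to 5156 in the epiblasts. Lower were 7 of 18 genes of 3′ end processing, 3 of 10 replacement histone genes, 4 of 18 chaperone genes and 5 of 22 S phase genes. The share of all probes called lower was 16.3%. Genes of these lists that were higher are not counted here, so the counts show only the lower side of each list. The replacement histone gene H2afy, for example, averaged 11.04 in amplified EpiSC, against 9.27 over the 17 epiblasts. The count of histone probes was 9 under median scaling (4 higher and 5 lower), 8 without CAV2, PS5 or LB2 in turn, and 23 without LMS3. Of all probes, 5532 were called under median scaling and 5854 without LMS3, against 6087. Without CAV2, PS5 and LB2 in turn, 4549, 5689 and 5079 of all probes were called.

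**Figure D5:**
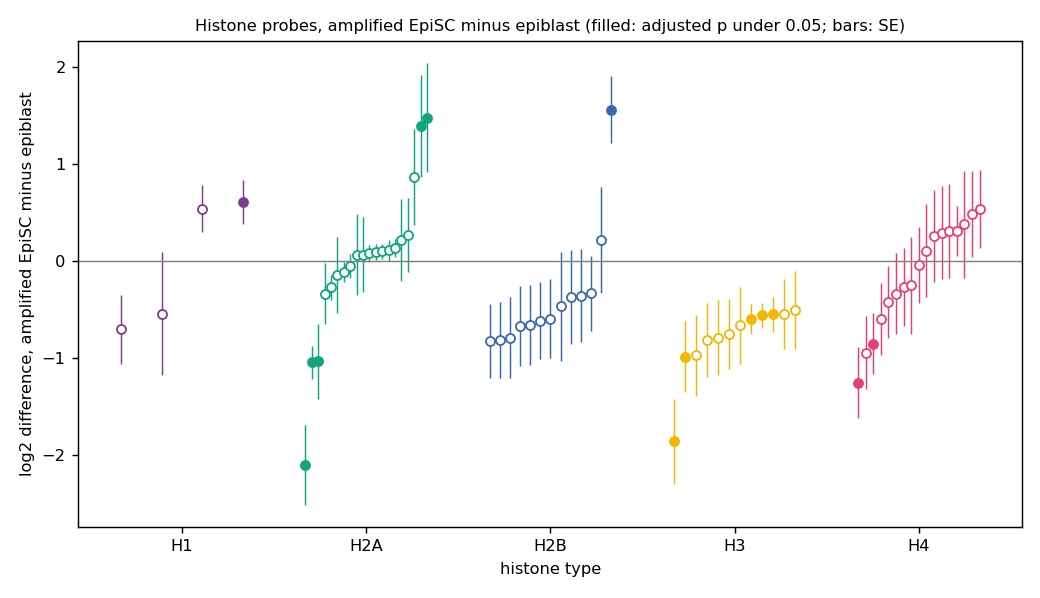
Log2 difference amplified EpiSC minus epiblast of each histone probe tested, arranged by histone type on the other axis, with bars of 1 standard error and filled points for an adjusted p under 0.05. The 5 filled H3 points lie below 0, and Hist1h2ae, detected on 0 of 12 EpiSC arrays, lies lowest among the H2A points.

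Amplified and unamplified RNA of the same lines gave different histone readings, in a smaller share of histone probes than of all probes. All 12 amplified arrays lay in an array set without unamplified EpiSC arrays, so amplification and array set cannot be told apart. In the same 4 lines, with the line in the model, 43 of 70 histone probes passed between 12 amplified and 12 unamplified cultures (19 higher and 24 lower), beside 79.4% of 19381 probes (40.2% higher and 39.2% lower). By type, 1 of 15 H2B probes was higher and 11 lower, and 3 of 4 H1 probes were higher. Hist1h2bf averaged 8.30 ± 1.07 amplified, against 10.61 ± 0.66 unamplified (SD, n = 12 cultures each), a difference of −2.31. Hist1h2bh differed by −2.24, ILMN_2636781 of Hist1h2bk by −2.04, Hist1h2bn by −1.99, Hist1h4h by −2.10 and ILMN_1222313 of Hist1h4f by −1.64. Hist2h2aa1 differed by +1.78 and +1.61 on ILMN_1231053 and ILMN_2751948, and Hist1h1b by +1.51. The direction of these counts depends on the scaling: median scaling gave 8 higher and 34 lower, normalizing the amplified arrays apart gave 5 higher and 49 lower, with the median of all probes at −0.40 and −0.58. Without PS5 the split was 30 higher and 19 lower. Amplified minus unamplified values given elsewhere in the text carry the same limit.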

How the data were processed

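Per the labels' protocols, RNeasy columns were used for total RNA, and RNA of the epiblasts and of 12 EpiSC cultures was amplified. The authors deposited raw probe intensities on a linear scale, summarised with BeadStudio per the submitters' processing notes, with a detection p-value for every probe and array. They also deposited processed values, read here as log2 and made in a way not given in the sources used here. These cover 58 of the 89 histone probes, and 3 of their 112 columns (the LB2 cultures) best matched another array, so they served as an alternative only.

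Intensities were background-corrected from the detection p-values, quantile normalized over all arrays and log2-transformed with limma's neqc (limma 3.58.1, R 4.3.3, offset 16). Tested probes had a detection p under 0.01 on 3 or more arrays compared, or on both MEF arrays, and probes of 1 gene were kept apart. No arrays held identical values.

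EpiSC, iPSC, ESC, MEF and EpiSC9 were compared over line means, a subline counting with its line, so ESC, MEF and EpiSC9 are 1 unit each. Line differences and amplification were tested over cultures, whose p-values measure the spread between cultures of a line, and epiblasts over embryos, with 4 line means. All were 2-sided limma tests (lmFit, eBayes with trend), Benjamini-Hochberg adjusted over all probes tested, with a limit of 0.05. Where 0 arrays of the dimmer group detected a probe, the fold is a bound, each dim array being set to its lowest detected signal or the probe's own value, whichever was higher.

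The histone genes and lists were chosen with earlier results of these data known. Named by rule were the 6 highest and 6 lowest histone probes that passed in each 2-group comparison (detected on all arrays of the brighter group), the 6 smallest p of each F test, the brightest probe per type, and list members. Any other probe named was picked after its values were seen. The lists are 3′ end processing, replacement histones, histone chaperones, S phase, fibroblast, naive and core pluripotency, post-implantation epiblast and visceral endoderm genes.

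On simulated data with 200 of 21726 probes changed, the EpiSC minus MEF test recovered 29% of changes of 1 and 87% of changes of 2 log2 units. Promoters came from RefSeq. Alternatives covered background correction, scaling, deposited values, the filter, 1 probe per gene, array sets, replicate blocks and left-out samples.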

Additional observations from a re-analysis of the deposited data

Results flagged for a closer look

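Of 48 groups of 4 to 10 samples tested for a single sample far from the rest, 3 were singled out, and chance alone does so in about 1 of 20. In the early epiblasts, ILMN_2925169 of Hist1h3f read 7.343 in the first cavity embryo, and the other 3 lay between 4.68 and 4.94. In the bud epiblasts, the no bud embryo read 12.308 for Hist1h2ag, where the other 6 lay between 9.58 and 10.71. The same embryo read 7.9402 for Hist2h2aa2, where the others lay between 4.47 and 5.72.

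For 12 named probes, amplified minus unamplified differed between the lines CAV2, LB2, LMS3 and PS5, by the interaction of line and amplification in limma. That test called 60 of 70 histone probes, beside 78.6% of all probes. For Hist2h2aa1 the shift, amplified minus unamplified, lay between +1.01 and +2.89 on ILMN_1231053 (adjusted p = 0.00041149) and between +0.95 and +2.41 on ILMN_2751948 (0.0023803). It lay between +0.47 and +2.11 for Hist1h1b (adjusted p = 1.684e-06) and between +0.08 and +1.70 for ILMN_2525620 of Hist1h4b (5.1544e-05). Hist1h4j lay between −0.33 and +2.06 (adjusted p = 1.2313e-06) and Hist1h2ab between −0.22 and +1.73 (8.3426e-06), so both changed sign between lines. Among the H2B genes, the shift lay between −3.93 and −0.65 for Hist1h2bf (adjusted p = 3.7801e-11) and between −3.89 and −0.63 for Hist1h2bh (2.3119e-11). It lay between −3.77 and −0.85 for ILMN_2636781 of Hist1h2bk (adjusted p = 1.4014e-08) and between −3.54 and −0.55 for Hist1h2bn (9.9103e-10). For Hist1h4h it lay between −2.96 and −1.13 (adjusted p = 7.3116e-06) and for ILMN_1222313 of Hist1h4f between −3.07 and −0.11 (6.2521e-10).

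In the supplied RNA sample EpiSC9_T, which enters no comparison, Hist1h2aa read 5.8704 and was detected. The 3 EpiSC9 cultures read 4.64 to 4.84 and did not detect it.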

How the results depend on the processing

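The counts of called histone probes were recomputed under each alternative setting, and 42 of these recomputed counts lay outside 1.5 times the count reported. For EpiSC minus MEF they ranged from 28 (of 52 tested, with 1 probe per gene) to 55 (of 74 tested, with array set as a random block). In these settings 6761 and 11897 of all probes were called, against 9606. The probes named by rule kept direction and call under all alternatives run for EpiSC minus MEF (12 probes), iPSC minus MEF (12), EpiSC minus iPSC (1, Hist1h2ae), bud minus early epiblasts (7), the periods (6) and the lines (6). Hist2h2bb and ILMN_2925169 of Hist1h3f lost the call in EpiSC minus iPSC with the deposited values, sublines left out or the random block. In amplified EpiSC minus epiblast, 44 of 154 recomputed values of named probes lost the call. Hist1h2ab reversed in amplified minus unamplified EpiSC, at −0.010 under median scaling and −0.25 with amplified arrays normalized apart. The cause was not tested here or for the counts that follow.

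With EpiSC minus ESC (1 called), median scaling and leaving out sublines gave 0, and array set as a random block gave 3. These settings called 5296, 4770 and 7804 of all probes, against 5647. For EpiSC minus iPSC (3), the deposited values, sublines left out and the random block gave 1 each, iPSC3 left out gave 7, the first cultures left out gave 5, and leaving out each line gave 1 to 7. The deposited values, sublines left out and the random block called 7692, 8244 and 7467 of all probes, against 9123. For iPSC minus ESC (0), the random block gave 4 and iPSC3 left out gave 2, with 0 to 2 over left-out samples. Of all probes, the random block called 2845 and iPSC3 left out 2122, against 0. For iPSC minus MEF (39 of 65 tested), the deposited values gave 24 of 40 tested, with 8469 of all probes called, against 9954. For EpiSC9 minus EpiSC (1), no background correction gave 10, the deposited values 8, no filter 7, 1 probe per gene 2, only these groups 3, the random block 39, and median scaling or sublines left out 0. Leaving out an EpiSC9 culture gave 1 to 14, the 14 without the first, where 1053 of all probes were called. The F test over lines (71) gave 47 with the deposited values, which hold fewer probes. For amplified EpiSC minus epiblast (14), median scaling gave 9, the deposited values 6 and no filter 8, and leaving out a line or embryo gave 8 to 23. Of all probes, these settings called 5532, 5033 and 5470, and 4549 to 5889 with a line or embryo left out, against 6087. For the periods (15 of 63 tested), median scaling gave 27 and leaving out the no bud embryo 23. The deposited values gave 9 of 41 tested and 1 probe per gene 9 of 44. Calls over all probes in these settings, in turn, were 6846, 7825, 5602 and 4796, against 6450. For bud minus early (16 of 60 tested), the deposited values gave 9 of 38 tested and 1 probe per gene 10 of 43. Leaving out the 2 embryos described as cultured cells gave 9, and leaving out single early embryos 8 to 17. The array set of the early epiblasts gave 25 of 59. Of all probes, the deposited values called 4467, 1 probe per gene 3852 and single early embryos left out 3785 to 4790, against 5102.

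Median scaling moved the median of all probes to +0.22 in EpiSC minus MEF, +0.39 in iPSC minus MEF, −0.19 in bud minus early epiblasts and +0.15 in amplified EpiSC minus epiblast. Amplified and unamplified cultures of the same number did not deviate together (r −0.34 to 0.07), and the replicate block gave 40 calls in place of 43. It gave 71 of 71 for the lines. Over 672 pairs of cultures of different lines with the same number, the correlation had a median of 0.003.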
